A study of Homo sapiens with 4 samples.

Results

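The genes described here are 9 human genes by which a cell detects foreign RNA in its cytosol and endosomes and passes the signal on: *RIGI* (*DDX58* in older annotation), *IFIH1*, *DHX58*, *TLR3*, *MAVS*, *EIF2AK2*, *TBK1*, *IRF3* and *IRF7*. They were chosen by function, as a list of names drawn up with earlier results of these data known, out of 63677 Ensembl genes in the count table, and all 9 had enough counts to be tested. The study worked in LX-2 cells, which are an immortal line derived from human liver stellate cells, and transfected them with a mimic of the microRNA miR-6133-5p or with the negative control mimic miControl, each at 20 nM with a lipid reagent. All cells received 5 ng/mL of rhTGF-β1 (recombinant human transforming growth factor β1) 24 h after transfection, and RNA was collected 24 h later, with 2 libraries in each group. Cells without any transfected RNA, or without rhTGF-β1, are not among the 4 libraries, so a change that both mimics cause alike cannot be seen in this comparison. The labels do not say whether replicates were separate cultures, and the p-values measure the spread between these libraries, which may be technical.

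RIG-I (the product of *RIGI*) and MDA5 (the product of *IFIH1*) are cytosolic helicases that bind double-stranded RNA or RNA with a 5′-triphosphate and then engage MAVS, an adaptor on the outer mitochondrial membrane. LGP2, the product of *DHX58*, is their relative without the signalling domains and modulates both. TLR3 binds double-stranded RNA inside endosomes and signals through TICAM1, and PKR, the product of *EIF2AK2*, halts translation by phosphorylating eIF2α when it binds double-stranded RNA. The kinase TBK1 phosphorylates IRF3 and IRF7, which then switch on type I interferon genes. In many cell types interferon in turn raises the expression of several of these genes, among them *RIGI*, *IFIH1*, *DHX58*, *EIF2AK2* and *IRF7*.

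Library totals ran from 51862006 to 93811213 counts, with between 1.68 and 1.70 counts for each read pair mapped to a unique place, so that a sequenced fragment could add more than 1 count. Levels are given as CPM, counts per 1000000 of the library total scaled by TMM (the trimmed mean of M values), and 1 count was worth between 0.0101 and 0.0203 CPM. Of 10 genes marking stellate or other mesenchymal cells, 8 had a mean above 1 CPM, with a summed level of 8680 to 9274 CPM with miControl and 5647 to 6242 CPM with miR-6133-5p. *DES*, which encodes the muscle-type intermediate filament desmin, had at most 3 counts in any library. Of 7 hepatocyte markers 1 (*SERPINA1*) was above 1 CPM, with *APOA2*, *TTR* and *CYP3A4* at no more than 3 counts, and the list summed to 2.03 to 2.63 CPM with miControl and 2.38 to 2.85 CPM with miR-6133-5p. The blood cell list summed to 9.33 to 11.5 and 9.53 to 9.56 CPM and the endothelial list to 5.59 to 5.88 and 4.94 to 5.76 CPM in these groups. Of 5 cholangiocyte or other epithelial markers, only *KRT7* and *SOX9* were above 1 CPM, and *CDH1* had at most 3 counts in any library. This epithelial list summed to 83.9 to 85.4 CPM with miControl and 36.9 to 39.9 CPM with miR-6133-5p. The part of these marker levels in the results that follow was not tested, and in bulk RNA fewer cells of a type cannot be told apart from less RNA per cell.

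Of the 9 genes, *IFIH1*, *DHX58* and *IRF7* rose with miR-6133-5p, each by a little under 2-fold, and the other 6 did not pass the test. A gene was called higher or lower at an adjusted p-value below 0.01 with a log2 fold change beyond 0.8, the thresholds of the study's methods, in a quasi-likelihood test with edgeR over 18252 genes. Thus 3 of the 9 were called higher, where 2.9% of all tested genes were called higher and 8.44% were called in either direction. None (0 of 9) was called lower, where 5.54% of all tested genes were, and DESeq2 also called 0 of them lower. At an unadjusted p-value below 0.05, 4 were higher and 1 was lower by edgeR, where 20% of all tested genes were higher and 20.3% lower. The same 3 genes passed at an adjusted p-value below 0.01 without a fold threshold, where 7.96% of all tested genes were higher and 10.9% lower. The median log2 fold change of the 9 was 0.31, against 0.03 for all tested genes. Both miR-6133-5p libraries lay above both miControl libraries in 5 of the 9 genes and below them in 1, where 33.2% and 31.3% of all tested genes did so (64.4% in either direction). With libraries scaled by their totals alone, the median of all genes moved to 0.19 and the calls over all genes went from 529 higher and 1011 lower to 977 higher and 709 lower, while the same 3 members were called.

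**Figure D1:**
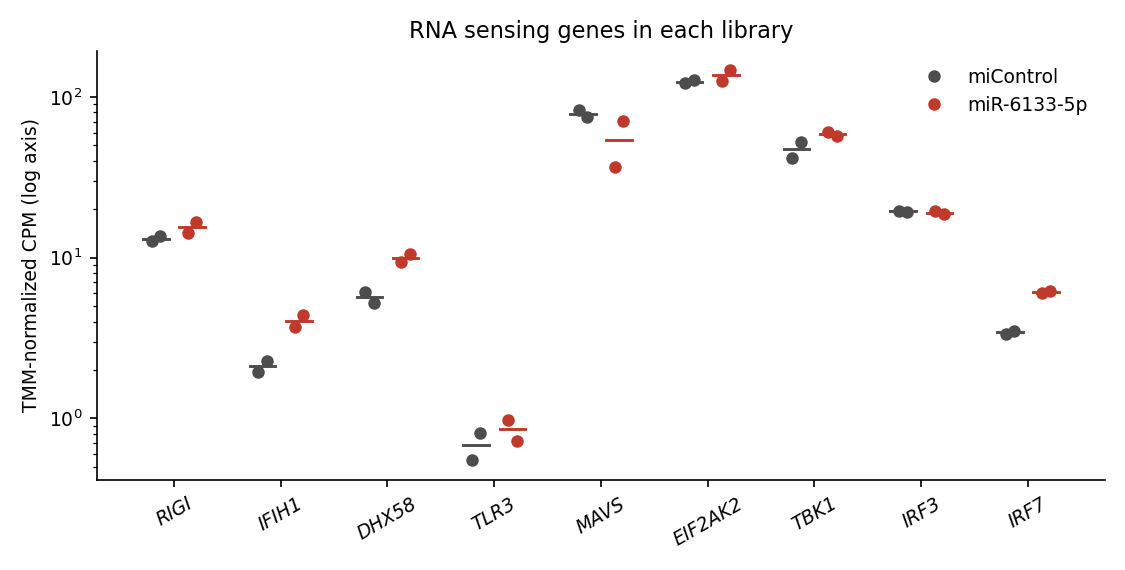
Level of each of the 9 genes in each library, as TMM-normalized CPM on a log axis. Points are libraries and bars are the means of 2 libraries. The miR-6133-5p points of *IFIH1*, *DHX58* and *IRF7* lie above the miControl points, and those of *MAVS* lie far apart at 36.6 and 71.3 CPM.

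The 3 RIG-I-like receptors were measured at low to moderate levels. *IFIH1* (ENSG00000115267) lies on chromosome 2 of GRCh37 from 163123584 to 163175194. Its level was 1.93 and 2.28 CPM in the miControl libraries and 3.69 and 4.37 CPM in the miR-6133-5p libraries. Both miR-6133-5p values were above both miControl values, and the gap between the groups was wider than the gap within either. The rise, from 2.10 ± 0.243 to 4.03 ± 0.482 CPM (SD, n = 2), was a log2 fold change of 0.94 with a 95% interval of 0.50 to 1.37 (standard error 0.201, adjusted p = 0.00322, edgeR).

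*DHX58* (ENSG00000108771), on chromosome 17 from 40253422 to 40264732, was at 6.12 and 5.20 CPM with miControl and at 9.41 and 10.5 CPM with miR-6133-5p. The groups did not overlap here either. Its log2 fold change was 0.82, with an interval of 0.50 to 1.14 (standard error 0.147, adjusted p = 0.000959, edgeR).

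*RIGI* (ENSG00000107201), on chromosome 9 from 32455300 to 32526206, was at 12.6 and 13.7 CPM with miControl and at 14.2 and 16.7 CPM with miR-6133-5p. Although these groups do not overlap, the gap between the nearest libraries was smaller than the gap between replicates. The log2 fold change of 0.23 did not pass the test (adjusted p = 0.194, edgeR), and its interval ran from -0.04 to 0.51, below the values estimated for *IFIH1* and *DHX58*. The differences between the 3 fold changes were not tested.

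The sequences around the start sites of these receptors were read for GAAA followed by any 2 bases and GAAA again (10 bases, either strand), letters which are found in the binding elements of interferon regulatory factors. The windows, 250 bases before to 50 bases after the start, came from RefSeq on GRCh38.p14 and held 6 of the 9 genes, with no entry for *DHX58*, *IRF3* and *IRF7*. A match was present in 3 of the 6, *IFIH1*, *TLR3* and *EIF2AK2*, and in 3.65% of 27305 promoter windows in all. The windows below show a receptor that rose, its relative and the PKR gene that did not pass the test, and the effector gene *IFIT1* described further on, with matches in capitals. That of *IFIH1* (chr2:162318635-162318934, minus strand) had 3 matches, which began 159, 153 and 21 bases before the start, and the first pair overlap. *EIF2AK2* (chr2:37156931-37157230, minus strand) had 1, which began 6 bases before the start. *RIGI* (chr9:32526147-32526446, minus strand) had 0 in this window, and *IFIT1* (chr10:89392373-89392672, plus strand) had 2. The pattern is strict, since the *RIGI* window holds gaaacgaaa, a GAAA pair with a single base between, which is not counted. Having 0 matches therefore does not mean that similar letters are absent.
IFIH1: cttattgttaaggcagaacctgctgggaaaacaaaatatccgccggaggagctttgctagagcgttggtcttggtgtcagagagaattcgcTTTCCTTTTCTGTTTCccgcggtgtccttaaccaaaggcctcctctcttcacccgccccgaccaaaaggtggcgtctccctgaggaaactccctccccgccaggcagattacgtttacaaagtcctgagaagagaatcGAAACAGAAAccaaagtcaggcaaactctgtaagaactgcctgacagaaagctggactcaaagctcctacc
EIF2AK2: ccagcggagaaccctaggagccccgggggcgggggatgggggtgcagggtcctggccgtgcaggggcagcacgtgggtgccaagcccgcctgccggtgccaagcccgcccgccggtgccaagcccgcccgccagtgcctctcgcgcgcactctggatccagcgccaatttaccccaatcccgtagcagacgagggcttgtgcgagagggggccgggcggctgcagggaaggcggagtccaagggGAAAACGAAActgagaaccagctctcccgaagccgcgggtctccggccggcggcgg
RIGI: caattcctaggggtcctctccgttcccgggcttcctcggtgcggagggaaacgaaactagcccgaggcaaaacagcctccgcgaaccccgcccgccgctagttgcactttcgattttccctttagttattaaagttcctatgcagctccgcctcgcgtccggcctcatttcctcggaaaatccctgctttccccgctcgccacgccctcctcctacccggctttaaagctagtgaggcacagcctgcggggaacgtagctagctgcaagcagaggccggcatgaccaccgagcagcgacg
IFIT1: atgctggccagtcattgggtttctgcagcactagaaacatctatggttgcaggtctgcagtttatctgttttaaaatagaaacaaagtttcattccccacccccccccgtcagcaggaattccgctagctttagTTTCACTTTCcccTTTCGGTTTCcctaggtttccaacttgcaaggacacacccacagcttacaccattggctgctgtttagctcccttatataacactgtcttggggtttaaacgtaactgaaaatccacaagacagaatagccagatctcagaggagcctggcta
A match of letters is a description of the window and does not show that a factor binds there.

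The endosomal receptor gene *TLR3* (ENSG00000164342, chromosome 4 from 186990065 to 187009227) had the lowest level among the 9 genes, at 0.549 and 0.808 CPM with miControl and 0.979 and 0.726 CPM with miR-6133-5p. These levels rest on 27 to 72 counts per library, and the groups overlapped. Its log2 fold change was 0.31, and the interval, from -0.48 to 1.11, spans both no change and a doubling. A difference of the size seen for *IFIH1* lies within this interval. Chosen after their values were seen, *TLR7* and *TLR8*, which encode endosomal receptors for single-stranded RNA, were at or near 0. *TLR7* had 0 and 0 counts with miControl and 2 and 5 with miR-6133-5p, and *TLR8* had at most 2 counts in a library.

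*EIF2AK2* (ENSG00000055332, chromosome 2 from 37326353 to 37384665) took the most reads of the 9 genes, with 122 and 127 CPM with miControl and 126 and 146 CPM with miR-6133-5p. The lower miR-6133-5p library lay within the miControl range. Its log2 fold change of 0.13 did not pass the test (interval -0.11 to 0.37, adjusted p = 0.412, edgeR). Of its exon bases, 3.95% also belong to exons of antisense genes, whose reads cannot be told apart if the counting ignored strand.

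*MAVS* (ENSG00000088888, chromosome 20 from 3827446 to 3856770), the adaptor on which RIG-I and MDA5 converge, was the gene of the 9 whose replicates differed most in proportion. It was at 82.7 and 74.7 CPM with miControl and at 36.6 and 71.3 CPM with miR-6133-5p. Replicate 2 of miR-6133-5p lay just under the miControl libraries, and replicate 1 far under both. The log2 fold change was -0.54 with an interval of -1.005 to -0.08 (adjusted p = 0.0727, edgeR). Without replicate 1 of miR-6133-5p it was -0.16 (adjusted p = 0.294, edgeR), and without replicate 2 it was -1.12 and was called lower (adjusted p = 1.36e-09, edgeR), so that a single library decides the value. With a replicate block it was -0.62 at an adjusted p of 5.21e-06 (edgeR), still short of 0.8, and over all alternatives the adjusted p ran from 1.36e-09 to 1, the latter with glmTreat.

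*TBK1* (ENSG00000183735, chromosome 12 from 64845870 to 64895894), the kinase downstream of MAVS and TICAM1, was at 41.7 and 52.6 CPM with miControl and at 60.2 and 57.3 CPM with miR-6133-5p. Both miR-6133-5p values were higher, but the gap between the nearest libraries of the groups was smaller than that between the miControl libraries. Its log2 fold change was 0.32 with an interval of 0.06 to 0.58, and it did not pass the test (adjusted p = 0.0630, edgeR).

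Of the transcription factor genes at the end of the pathway, *IRF7* rose and *IRF3* did not pass the test, and the difference between them was not tested. *IRF7* (ENSG00000185507, chromosome 11 from 612553 to 615983) was at 3.34 and 3.51 CPM with miControl and at 5.98 and 6.15 CPM with miR-6133-5p. Its replicates were the closest of the 3 called genes, and the groups were far apart by comparison. The rise from 3.42 ± 0.121 to 6.07 ± 0.122 CPM (SD, n = 2) was 0.83 on the log2 scale, with an interval of 0.48 to 1.17 (standard error 0.160, adjusted p = 0.00161, edgeR).

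*IRF3* (ENSG00000126456, chromosome 19 from 50162826 to 50169132), which unlike *IRF7* is made constitutively in most cells, was at 19.6 and 19.2 CPM with miControl and at 19.4 and 18.6 CPM with miR-6133-5p. The groups overlapped, and the log2 fold change of -0.03 had an interval of -0.27 to 0.21 (adjusted p = 0.877, edgeR), which leaves out a difference of the size of that in *IRF7*. With library totals alone it was 0.13. The antisense gene *BCL2L12* shares 19.4% of the exon bases of *IRF3*. If strand was ignored, the level of *IRF3* is uncertain, by an amount that this share of bases does not give.

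**Figure D2:**
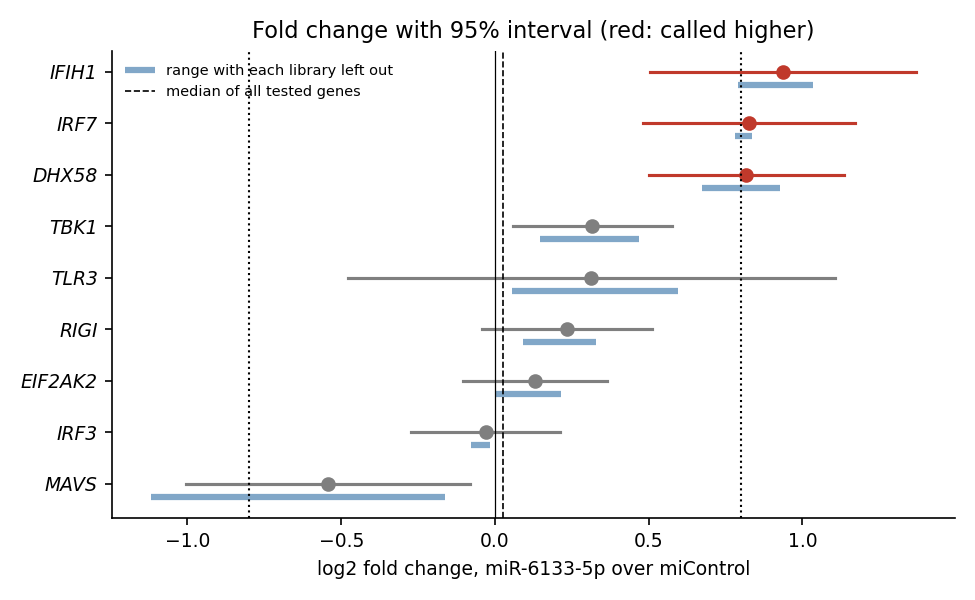
Log2 fold change of each gene, miR-6133-5p over miControl, with its 95% interval from edgeR (thin lines, 2 libraries per group) and its range with each library left out in turn (thick blue lines). Dotted lines mark -0.8 and 0.8, and the dashed line the median of all tested genes, 0.03. *IFIH1*, *IRF7* and *DHX58*, in red, lie just beyond 0.8, and *MAVS* has the widest blue line.

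The 3 rises sat close to the fold threshold, and their calls depended on it and on which library was left out. With edgeR's glmTreat, which tests against the threshold of 0.8 itself, 0 of the 9 genes were called. Without replicate 1 or replicate 2 of miControl none of the 3 was called, with adjusted p-values between 0.0128 and 0.0664 (edgeR). Without replicate 2 of miR-6133-5p they had log2 fold changes of 0.79, 0.72 and 0.79 for *IFIH1*, *DHX58* and *IRF7* at adjusted p-values of 0.00589, 0.000504 and 0.000763 (edgeR), just short of 0.8. Without replicate 1 of miR-6133-5p all 3 were called. Over these settings the log2 fold changes stayed between 0.67 and 1.03.

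Per kilobase of the canonical transcript in GENCODE, the 9 genes fell in the same broad order in both groups. With miControl, *TBK1* was highest at 15.6 ± 2.57 CPM per kilobase (SD, n = 2), followed by *EIF2AK2* at 12.5 ± 0.304, *IRF3* at 12.2 ± 0.195, *MAVS* at 6.71 ± 0.482, *RIGI* at 2.84 ± 0.160, *DHX58* at 2.18 ± 0.253, *IRF7* at 1.78 ± 0.0628, *IFIH1* at 0.588 ± 0.0680 and *TLR3* at 0.113 ± 0.0304. Among neighbours in this order, the libraries overlapped for *EIF2AK2* and *IRF3*. With miR-6133-5p, *TBK1* at 19.4 ± 0.666, *EIF2AK2* at 13.7 ± 1.44 and *IRF3* at 11.9 ± 0.356 CPM per kilobase (SD, n = 2) again led without overlap. Of the rest, *MAVS* at 4.597 ± 2.09 CPM per kilobase, with libraries at 3.12 and 6.07, overlapped *DHX58*, *RIGI* and *IRF7*. *DHX58* at 3.84 ± 0.299 stood narrowly above *RIGI* at 3.33 ± 0.387, with the nearest libraries at 3.63 and 3.61. *RIGI* then overlapped *IRF7*, which was at 3.16 ± 0.0636. *IFIH1* at 1.125 ± 0.135 and *TLR3* at 0.142 ± 0.0297 stayed the lowest. Reads of shorter or longer transcripts would shift this order.

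To place the 9 genes in their pathway, 138 other genes in 9 lists were followed, of which 121 could be tested. Of these, 4 were called higher and 4 lower, where 2.9% and 5.54% of all tested genes were, and their median log2 fold change was 0.03, the same as that of all tested genes. The counts of each list below are to be read against those shares, and those at an unadjusted p-value below 0.05 against 20% higher and 20.3% lower. The list of RNA-binding and antiviral effectors had the highest median, 0.83 over 12 tested genes, and in all 12 both miR-6133-5p libraries lay above both miControl libraries, as they did in 33.2% of all tested genes. Of the 12, 3 were called higher and 0 lower by edgeR (10 higher and 0 lower at an unadjusted p-value below 0.05), and DESeq2 gave the same 3 and 0. This list too was chosen with earlier results known.

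*IFIT1*, which encodes a protein that binds viral RNA lacking a methylated cap, rose from 5.61 and 5.36 CPM to 17.8 and 22.8 CPM, a log2 fold change of 1.89 (adjusted p = 9.15e-07, edgeR). Its partner *IFIT3*, which took the most reads of the list, rose from 12.5 and 13.2 CPM to 36.5 and 38.0 CPM, a log2 fold change of 1.53 (adjusted p = 5.73e-07, edgeR). Both rises were larger than those of the receptors and stayed past the threshold with glmTreat. *MX2*, an interferon-induced GTPase gene, had 14 and 14 counts with miControl and 39 and 171 with miR-6133-5p. It was called at a log2 fold change of 2.12, but the miR-6133-5p libraries differed widely, and without replicate 2 it was 1.12 and was no longer called (adjusted p = 0.154, edgeR). Without replicate 1 or 2 of miControl its adjusted p-values were 0.0742 and 0.0608 (edgeR), also above 0.01. Chosen after its values were seen, the chemokine gene *CXCL10*, which interferon induces in many cells, had at most 2 counts in any library. Of the 11 genes of this list with a promoter window, 10 held the paired GAAA letters described above.

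**Figure D3:**
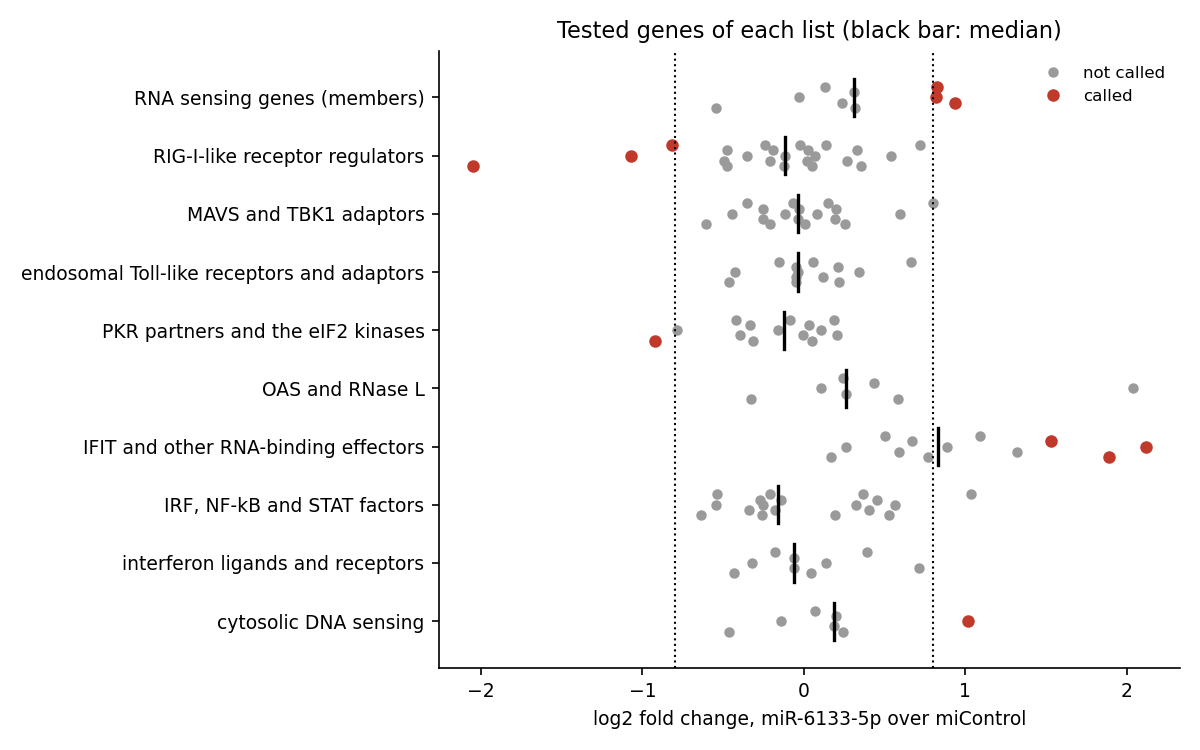
Log2 fold change, miR-6133-5p over miControl, of the tested genes of each pathway list, 1 point per gene, with called genes in red and the median of each list as a black bar. The effector list with the *IFIT* genes has its median at 0.83 and the 9 sensing genes at 0.31, whereas the other lists have medians between -0.16 and 0.26.

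The interferon genes of the list were at or near 0, with an exception given below, and other interferon genes were not looked up. *IFNB1*, *IFNA2*, *IFNL1*, *IFNL2* and *IFNL3* had 0 counts in all 4 libraries under the identifiers used. If each count were a separate fragment, this would allow up to 0.0610 CPM in the shallowest library (3 counts, covering counting error only). A fragment could add more than 1 count, so the level allowed is higher than that. *IFNA1* had 2, 3, 7 and 10 counts and *IFNK* at most 6, both too few to be tested. Antisense exons share 63.4% of the exon bases of *IFNA1*, and their reads cannot be told apart if the counting ignored strand. The exception was *IFNE*, a type I interferon gene expressed without infection in some epithelia, at 2.64 and 3.32 CPM with miControl and 4.76 and 5.03 CPM with miR-6133-5p. Its adjusted p-value was 0.00953 (edgeR) at a log2 fold change of 0.71, short of the fold threshold. In the list of interferon ligands and receptors 0 of 9 tested genes were called by edgeR or by DESeq2, with 1 higher and 2 lower at an unadjusted p-value below 0.05 by edgeR. Its gene with the most reads, the kinase gene *JAK1*, was at 390 ± 5.67 CPM and 313 ± 15.0 CPM (SD, n = 2; log2 fold change -0.32, adjusted p = 0.0297, edgeR).

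Among 24 regulators of the RIG-I-like receptors, 23 were tested, with 3 called lower and 0 higher by edgeR (3 higher and 8 lower at an unadjusted p-value below 0.05), and the same numbers by DESeq2. *NLRX1*, which encodes a mitochondrial protein described as an inhibitor of MAVS, fell from 8.40 and 7.23 CPM to 1.88 and 1.89 CPM. At -2.05 on the log2 scale (standard error 0.171, adjusted p = 1.69e-06, edgeR), this was the largest fall in the 9 lists. Leaving out any one library moved it no further than -2.18 or -1.95. *ZNFX1*, a helicase gene reported to sense double-stranded RNA at mitochondria, fell from 310 and 309 CPM to 131 and 163 CPM, a log2 fold change of -1.07 (adjusted p = 1.98e-05, edgeR). *TNFAIP3*, which encodes the ubiquitin-editing enzyme A20, a brake on NF-κB and TBK1 signalling, fell from 44.3 and 45.3 CPM to 24.6 and 26.3 CPM, a log2 fold change of -0.82 (adjusted p = 6.87e-05, edgeR). It was -0.79 without replicate 1 of miR-6133-5p and -0.65 with library totals alone, short of 0.8 in both. The regulator with the most reads, the helicase gene *DDX3X*, was at 726 ± 29.4 CPM and 762 ± 35.4 CPM (SD, n = 2) and did not pass the test. Chosen after its values were seen, *TRIM25*, the ubiquitin ligase gene for RIG-I, was at 47.4 and 49.6 CPM with miControl and 72.4 and 86.9 CPM with miR-6133-5p. The log2 fold change of *TRIM25* was 0.72 (adjusted p = 0.000354, edgeR), short of the fold threshold.

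**Figure D4:**
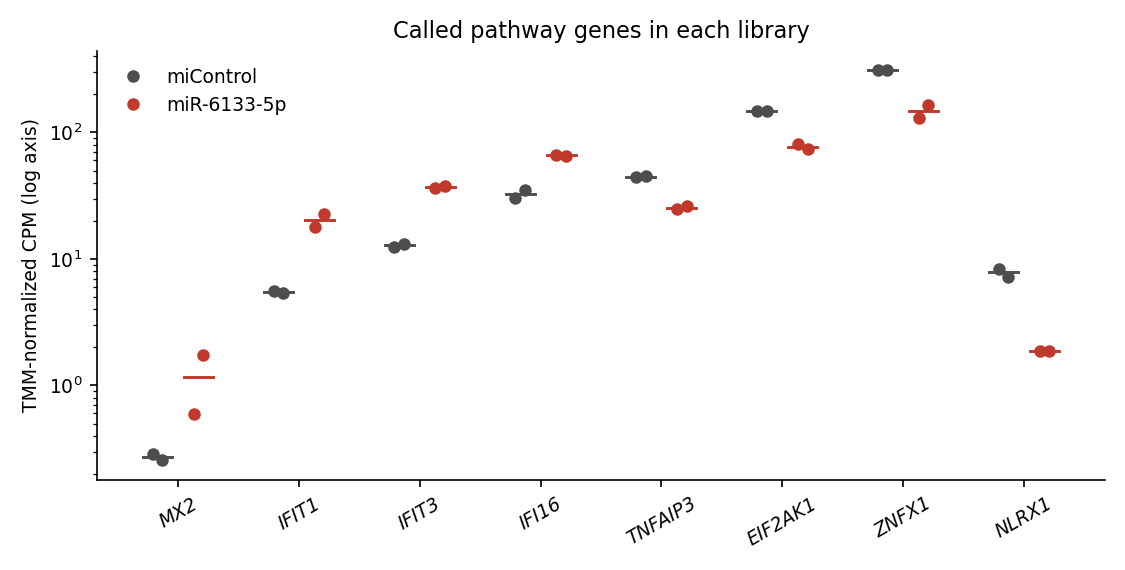
Level of the 8 other pathway genes that were called, in each library, as TMM-normalized CPM on a log axis, with bars at the means of 2 libraries. *MX2*, *IFIT1*, *IFIT3* and *IFI16* are higher and *TNFAIP3*, *EIF2AK1*, *ZNFX1* and *NLRX1* lower with miR-6133-5p, with no overlap between the groups.

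Of 18 tested genes for adaptors between MAVS and TBK1, 0 were called by edgeR or DESeq2, with 3 higher and 4 lower at an unadjusted p-value below 0.05 by edgeR. The gene of this list with the most reads, the chaperone gene *HSP90AA1*, went from 705 and 891 CPM to 1416 and 1358 CPM, and its log2 fold change of 0.798 was just under the threshold of 0.8 (adjusted p = 0.000243, edgeR). With a replicate block it was 0.81 and was called (adjusted p = 1.1e-09, edgeR), as it was with library totals alone, without a filter on low counts, and without replicate 2 of either group. Over all alternatives its adjusted p ran from 1.08e-14 to 1. No level is given for *IKBKE* and *IKBKG* of this list or for the chemokine gene *CCL5* of the effector list, because the identifiers by which they were looked up held no reads and the table may list them under others. Of 13 tested genes for endosomal receptors and their adaptors, 0 were called by edgeR or DESeq2, with 2 higher and 2 lower at an unadjusted p-value below 0.05 by edgeR, and the one with the most reads, *HSP90B1*, was at 827 ± 62.3 CPM and 859 ± 46.2 CPM (SD, n = 2).

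Of 14 genes for PKR partners and the other eIF2 kinases, *EIF2AK1* was called lower and 0 were called higher by edgeR (0 higher and 6 lower at an unadjusted p-value below 0.05), with the same calls by DESeq2. *EIF2AK1*, which encodes the heme-regulated eIF2 kinase, fell from 147 and 146 CPM to 81.3 and 73.5 CPM, a log2 fold change of -0.92 (adjusted p = 2.3e-05, edgeR), and was -0.76 with library totals alone. The *OAS* and RNase L list, the other arm that answers double-stranded RNA, had a median of 0.26 over 7 tested genes, and 0 were called by edgeR or DESeq2, with 1 higher and 1 lower at an unadjusted p-value below 0.05 by edgeR. Its gene with the most reads, *ABCE1*, which encodes an inhibitor of RNase L, was at 202 ± 31.6 CPM and 239 ± 3.74 CPM (SD, n = 2).

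Of 18 genes for IRF, NF-κB and STAT factors other than *IRF3* and *IRF7*, 0 were called by edgeR or DESeq2, with 6 higher and 5 lower at an unadjusted p-value below 0.05 by edgeR, and the median was -0.16. In the list of cytosolic DNA sensors, 1 of 7 tested genes was called. *IFI16*, which encodes a DNA-binding protein of the nucleus and cytosol, rose from 30.4 and 34.8 CPM to 66.2 and 65.6 CPM, a log2 fold change of 1.02 (adjusted p = 1.36e-05, edgeR). *DDX41*, with the most reads of that list, was at 63.7 ± 2.02 CPM and 75.3 ± 3.84 CPM (SD, n = 2).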

How the data were processed

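RNA of 4 libraries was sequenced by the authors as read pairs, aligned to GRCh37 with STAR 2.5.3a and deposited as whole-number counts per Ensembl gene, with no normalization. The submitters' processing notes also name featureCounts and Subread 1.6.4, and the annotation release and strand setting are not given in the sources used here. The counts deposited for single libraries differed from the table in 0 values. The number of uniquely mapped read pairs was a count deposited by the authors in a mapping summary, whose other columns were not used.

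Symbols were attached to 55665 of 63677 Ensembl identifiers. Low counts were removed by filterByExpr, libraries were scaled by TMM, and genes were tested 2-sided, without a replicate block, by glmQLFit and glmQLFTest in edgeR 4.0.16 (R 4.3.3), with Benjamini–Hochberg adjustment over 18252 genes. The F statistic of each gene gave the standard error and 95% interval of its log2 fold change. With 2 libraries against 2, an exact permutation test cannot give a p-value below 0.333, so none was made. Positions, transcript lengths and overlaps came from GENCODE v44 lifted to GRCh37, counting overlaps with genes in the table only. Named genes are the 9 members, called genes of the lists, the gene with the highest mean CPM of each list and the interferon ligands, of which 2 genes are not reported here. A gene named outside this rule is said to be chosen after its values were seen, and 3 genes are named only as having no level. Members and lists were chosen with earlier results of these data known. Alternatives were RLE factors, scaling by totals only, DESeq2 1.42.0, all genes without filtering, a minimum of 10 counts per library, a replicate block, counts thinned to the smallest library, glmTreat, an adjusted p-value of 0.05 and each library left out. The fit was tested on simulated data.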

Additional observations from a re-analysis of the deposited data

How the results depend on the processing

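Leaving out a library leaves 1 in an arm, which is then assumed to vary like the other group. It gave 0 to 3 sensing genes called higher and 0 to 1 called lower, 293 to 587 and 770 to 1249 of all genes, and 4 to 8 and 3 to 5 of the other pathway genes. With glmTreat 0 sensing genes were called higher, with 80 genes higher and 326 lower overall and 2 higher and 1 lower among the other pathway genes. With library totals alone 977 genes were called higher in all, 10 of the other pathway genes were called higher and 2 lower, and *IRF3* turned from -0.03 to 0.13. The other pathway genes called higher numbered 9 without a filter on low counts and 7 at an adjusted p-value of 0.05. Under the replicate block they numbered 8, and no call of the 9 sensing genes changed. The deviations of same-numbered libraries had a correlation of 0.049 across genes and 0.124 across abundant ones. The labels tie the numbers to no shared culture or day, and with 2 numbers they were not taken as pairs. The log2 fold change of *HSP90B1* ran from -0.031 to 0.11 when single libraries were dropped, and was -0.031 without replicate 1 of miControl and -0.018 without replicate 1 of miR-6133-5p. RLE factors, DESeq2, thinned counts and both filters kept the calls of all 9 sensing genes. The causes of these changes were not tested.

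*TLR3*, with 27 to 72 counts per library, and genes with fewer are limited by depth. Counts exceed read pairs, and precision read from them would be overstated.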
